A study of Mus musculus with 8 samples.

Results

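The genes described here are the protein-coding genes of the mitochondrial respiratory chain and ATP synthase. They were chosen by symbol alone: every symbol that starts with mt-, with Ndufa, Ndufb, Ndufc, Ndufs or Ndufv, with Uqcr, with Cox followed by a digit of the subunit series, or with Atp5, together with Sdha, Sdhb, Sdhc, Sdhd and Cyc1. The rule used no measured value and took 107 of the 20539 genes in the table, of which 15566 are protein-coding. Of these 107 genes, 13 lie on the mitochondrial chromosome (the mt- genes), 3 are the heart and skeletal muscle forms of cytochrome oxidase subunits (Cox6a2, Cox7a1 and Cox8b), and 91 are other nuclear genes. All 107 passed the filter on low values. By complex, 46 genes belong to complex I by name and 8 are complex I assembly factors, while 4 belong to complex II, 10 to complex III, 20 to complex IV and 19 to ATP synthase.

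The respiratory chain passes electrons from NADH (complex I) and succinate (complex II) through coenzyme Q, complex III and cytochrome c to oxygen at complex IV, and ATP synthase makes ATP from the proton gradient that results. Complex II is built from nuclear genes alone, whereas each of the other complexes joins a few subunits made inside the mitochondrion, all of them parts of the catalytic or membrane core, to a larger number made from nuclear genes and imported. The mitochondrial genes are read from both strands of a small circular chromosome as long precursor RNAs that are then cut apart. Skeletal muscle fibers are rich in mitochondria and use their own forms of several cytochrome oxidase subunits, whereas articular chondrocytes live in a poorly oxygenated matrix and rely largely on glycolysis.

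RNA of knee articular cartilage was sequenced from mice on day 7 after transection of the anterior cruciate ligament (ACLT). The 4 groups were ACLT limbs of anti-GDF8 mice, ACLT limbs of placebo mice, control limbs of anti-GDF8 mice and control limbs of placebo mice, with 2 pools (A and B) in each. The mice were young adults of both sexes, C57BL/6J or carrying a Col1-eGFP reporter. All received an antibody at 10 mg/kg under the skin: REGN647 against GDF8 (myostatin, a secreted inhibitor of muscle growth) or REGN1945, a control antibody. A control limb is the uninjured hind limb of an ACLT mouse, so it comes from an animal with an injury elsewhere, and the limbs compared are not from separate mice. Each pool combined the tissue of 4 limbs, so the spread among single mice cannot be seen and p-values measure the spread between pools. A treatment tag of the 4 control libraries reads quadricep, while their tissue, source and title read cartilage.

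The depth of the libraries, estimated from the spacing of their low values, was 16.4 to 28.1 M reads assigned to genes (M, 1e+06). Values are CPM, the reads of a gene scaled so that every library has the same total, and they are not corrected for gene length. Differences are log2 fold changes on the scale log2(reads + 1), in which CPM were turned into reads at the median depth of 20.1 M reads, so that 1 read equals 0.0498 CPM. A gene was called when limma's moderated test gave a Benjamini-Hochberg adjusted p under 0.05 over all 17401 genes tested. Values after ± are standard errors with 2 pools per group.

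Markers of 30 skeletal muscle fiber genes differed widely among the libraries labelled cartilage. Their summed share of reads was 0.272% and 4.10% in anti-GDF8 ACLT pools and 0.0713% and 0.0386% in placebo ACLT pools, against 2.09% and 3.53% in anti-GDF8 control pools and 3.71% and 8.67% in placebo control pools. All 30 were detected in 6 libraries, and 1 of the 30 was listed at 0 in anti-GDF8 ACLT pool A and in placebo ACLT pool B. The 16 cartilage markers summed to 0.490% and 0.382% of reads in anti-GDF8 ACLT pools and 0.830% and 0.847% in placebo ACLT pools, against 0.354% and 0.365% in anti-GDF8 control pools and 0.402% and 0.472% in placebo control pools. Though this sum was higher in placebo ACLT than in placebo control pools, the median log2 fold change of the 15 markers tested was -0.51. Erythroid markers took 7.05% to 13.4% and neutrophil markers 2.35% to 3.89% of each library. These are bulk samples, so fewer cells of a type and less RNA per cell cannot be told apart.

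Several mt- genes have near-identical copies on chromosome 1 that the table counts as genes of their own, which decides how reads are divided. The stretches below are shown because they are where reads of a gene and its copy can, or cannot, be told apart. They were read from the GENCODE M21 transcripts and carry GRCm38 coordinates. In mt-Co1 (cytochrome oxidase subunit 1, chrM:6381-6441, plus strand) and Gm29216 (chr1:24616137-24616197, minus strand), capitals mark the 6 bases that differ among the 492 aligned. In mt-Nd3 (chrM:9459-9519, plus strand) and Gm28438 (chr1:24613059-24613119, minus strand), capitals mark T3C, the 1 difference among 345 aligned bases, with the position counted from the first base of mt-Nd3. The first 90 bases of mt-Co3 (chrM:8607-8696, plus strand) are identical in Gm28437, as are all 783 bases of that copy.
mt-Co1: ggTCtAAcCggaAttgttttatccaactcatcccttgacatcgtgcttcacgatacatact
Gm29216: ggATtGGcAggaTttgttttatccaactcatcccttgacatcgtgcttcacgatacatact
mt-Nd3: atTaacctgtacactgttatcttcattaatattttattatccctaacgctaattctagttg
Gm28438: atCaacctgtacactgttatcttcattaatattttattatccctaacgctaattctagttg
mt-Co3 and Gm28437: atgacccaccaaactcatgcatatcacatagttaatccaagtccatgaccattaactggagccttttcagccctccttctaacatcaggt

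The CPM of the copy was 109% of that of the gene for mt-Co3, 70.8% for mt-Co2 (copy Gm28661), 58.6% for mt-Atp6 (copy Gm10925), 16.8% for mt-Co1 and 6.47% for mt-Nd3. Levels of these 5 genes are therefore uncertain, and their changes were also computed with the copies added. Over all 107 genes, 27 had a near-identical or overlapping partner at 97% identity or more over at least 150 bases, and in 11 that partner reached 5% of the CPM of the gene. Among the nuclear ones were Ndufb4 with Ndufb4c (17.4%) and 4 genes that overlap a gene of the opposite strand. The remaining one was Cox5b-ps, which the table labels protein-coding. It averaged 0.794 CPM beside 116 CPM for Cox5b, with 99.2% identity over its 390 bases, so its own values are uncertain. The sources used here do not say whether counting used strand. The gene mt-Nd6 lies antisense to the end of mt-Nd5, while mt-Atp8 overlaps mt-Atp6 and mt-Nd4l overlaps mt-Nd4.

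The mt- genes were the most abundant of the set. Per kilobase of transcript, ranks 1 to 9 of the 107 genes were all mt- genes, led by mt-Co1 at a mean of 3407 CPM per kb. The length used was that of the longest protein-coding transcript of each gene, which need not be the one expressed. The most abundant nuclear gene per kilobase was Atp5b, the catalytic beta subunit of ATP synthase, at 617 CPM per kb. The muscle forms stood lower in that order, at 136 CPM per kb for Cox6a2, 71.4 for Cox8b and 32.4 for Cox7a1. All 13 mt- genes together took 1.04% and 1.71% of reads in anti-GDF8 ACLT pools and 1.09% and 1.12% in placebo ACLT pools, against 2.14% and 2.24% in anti-GDF8 control pools and 3.01% and 2.83% in placebo control pools. All 4 ACLT libraries lay below all 4 control libraries.

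The comparison of placebo ACLT with placebo control limbs asks what ligament injury does when GDF8 is left active. All 13 mt- genes fell, and all 3 muscle forms fell by far more, while of the other 91 nuclear genes 16 fell, 2 rose and 73 were not called. Over all genes tested, 4.03% were called lower and 11.6% higher, with a median of 0.17. The median change was -1.40 for the mt- genes, -4.73 for the muscle forms and -0.27 for the other nuclear genes. The higher and lower calls over all genes split 2011 against 701.

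The 7 mt- genes of complex I encode the core of its membrane arm, through which protons are pumped. The gene mt-Nd1 had 997 and 1845 CPM in anti-GDF8 ACLT pools and 1019 and 1071 CPM in placebo ACLT pools, against 2278 and 2418 CPM in anti-GDF8 control pools and 3369 and 3233 CPM in placebo control pools. The gene mt-Nd2 had 312 and 675 CPM in anti-GDF8 ACLT pools and 353 and 329.8 CPM in placebo ACLT pools, against 788 and 984 CPM in anti-GDF8 control pools and 1159 and 1245 CPM in placebo control pools. In both genes, anti-GDF8 ACLT pool B lay above the other 3 ACLT pools and below every control pool. Placebo ACLT differed from placebo control by -1.66 ± 0.28 for mt-Nd1 (limma adjusted p = 0.00678) and by -1.82 ± 0.31 for mt-Nd2 (limma adjusted p = 0.00726). The value of mt-Nd2 was the lowest of the 13. The gene mt-Nd3 had 57.6 and 91.8 CPM in anti-GDF8 ACLT pools and 75.5 and 67.6 CPM in placebo ACLT pools, against 103 and 116 CPM in anti-GDF8 control pools and 184 and 161 CPM in placebo control pools, a placebo difference of -1.27 ± 0.21 (limma adjusted p = 0.00678).

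The longer ND4 and ND5 genes encode the antiporter-like subunits at the far end of that arm. The gene mt-Nd4 had 712 and 1347 CPM in anti-GDF8 ACLT pools and 837 and 771 CPM in placebo ACLT pools, against 1603 and 1839 CPM in anti-GDF8 control pools and 2241 and 2277 CPM in placebo control pools. The gene mt-Nd5 had 566 and 1061 CPM in anti-GDF8 ACLT pools and 581 and 579.6 CPM in placebo ACLT pools, against 1303 and 1541 CPM in anti-GDF8 control pools and 1629 and 1678 CPM in placebo control pools. Groups of ACLT and control limbs did not overlap in either gene. The short mt-Nd4l had 34.6 and 68.5 CPM in anti-GDF8 ACLT pools and 42.0 and 39.6 CPM in placebo ACLT pools, against 91.4 and 101 CPM in anti-GDF8 control pools and 117 and 126 CPM in placebo control pools. The placebo differences were -1.49 ± 0.28 for mt-Nd4, -1.51 ± 0.27 for mt-Nd5 and -1.57 ± 0.27 for mt-Nd4l, with limma adjusted p of 0.0103, 0.00887 and 0.00739.

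The gene mt-Nd6 is the only protein-coding gene of the other mitochondrial strand, and it had the smallest placebo difference of the 13, at -1.004 ± 0.18 (limma adjusted p = 0.00811). It had 156 and 202 CPM in anti-GDF8 ACLT pools and 185 and 157 CPM in placebo ACLT pools, against 267 and 327 CPM in anti-GDF8 control pools and 334 and 349 CPM in placebo control pools. Its ACLT pools lay between 156 and 202 CPM in both treatments, and no control pool was below 267 CPM. The gene mt-Cytb, the only mitochondrial gene of complex III and the protein that holds both of its quinone sites, had 1267 and 2371 CPM in anti-GDF8 ACLT pools and 1405 and 1469.8 CPM in placebo ACLT pools, against 2856 and 3230.2 CPM in anti-GDF8 control pools and 4129.9 and 4018 CPM in placebo control pools. Its placebo difference was -1.503 ± 0.29 (limma adjusted p = 0.0118).

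The 3 mitochondrial subunits of cytochrome oxidase form its catalytic core. The gene mt-Co1, whose product holds the oxygen-binding heme, had 3145 and 4771 CPM in anti-GDF8 ACLT pools and 3148 and 3273 CPM in placebo ACLT pools, against 6222 and 5993 CPM in anti-GDF8 control pools and 8192 and 7367 CPM in placebo control pools. The gene mt-Co2, which takes electrons from cytochrome c, had 731 and 1043 CPM in anti-GDF8 ACLT pools and 769.9 and 716 CPM in placebo ACLT pools, against 1268 and 1334 CPM in anti-GDF8 control pools and 1816 and 1709.7 CPM in placebo control pools. The gene mt-Co3 had 1094 and 1519 CPM in anti-GDF8 ACLT pools and 1139.9 and 1130.4 CPM in placebo ACLT pools, against 2172 and 1886 CPM in anti-GDF8 control pools and 3246 and 2777 CPM in placebo control pools. No ACLT pool reached a control pool in these 3 genes. Placebo differences were -1.28 ± 0.29 for mt-Co1, -1.25 ± 0.20 for mt-Co2 and -1.40 ± 0.22 for mt-Co3, with limma adjusted p of 0.0197, 0.00605 and 0.00535, the highest and the lowest of the 13 among them. With the chromosome 1 copies added they were -1.12, -1.17 and -1.28, with limma adjusted p of 0.0315, 0.0120 and 0.0169.

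The gene mt-Atp6, the subunit a of ATP synthase through which protons pass, had 1155 and 1869 CPM in anti-GDF8 ACLT pools and 1223 and 1418 CPM in placebo ACLT pools, against 2199.8 and 2366 CPM in anti-GDF8 control pools and 3284 and 2983 CPM in placebo control pools. The gene mt-Atp8, whose product helps to anchor the stator, had 156 and 225 CPM in anti-GDF8 ACLT pools and 168 and 192 CPM in placebo ACLT pools, against 264 and 308 CPM in anti-GDF8 control pools and 409.7 and 356 CPM in placebo control pools. Their placebo differences were -1.25 ± 0.26 for mt-Atp6 (limma adjusted p = 0.0143) and -1.09 ± 0.20 for mt-Atp8 (limma adjusted p = 0.00888). With copies added, mt-Atp6 stood at -1.05 and mt-Nd3 at -1.16, with limma adjusted p of 0.0258 and 0.0145. All 13 calls of mt- genes were kept with the copies added, with another pseudocount or filter, and under each of 3 other scalings of the libraries.

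**Figure D1:**
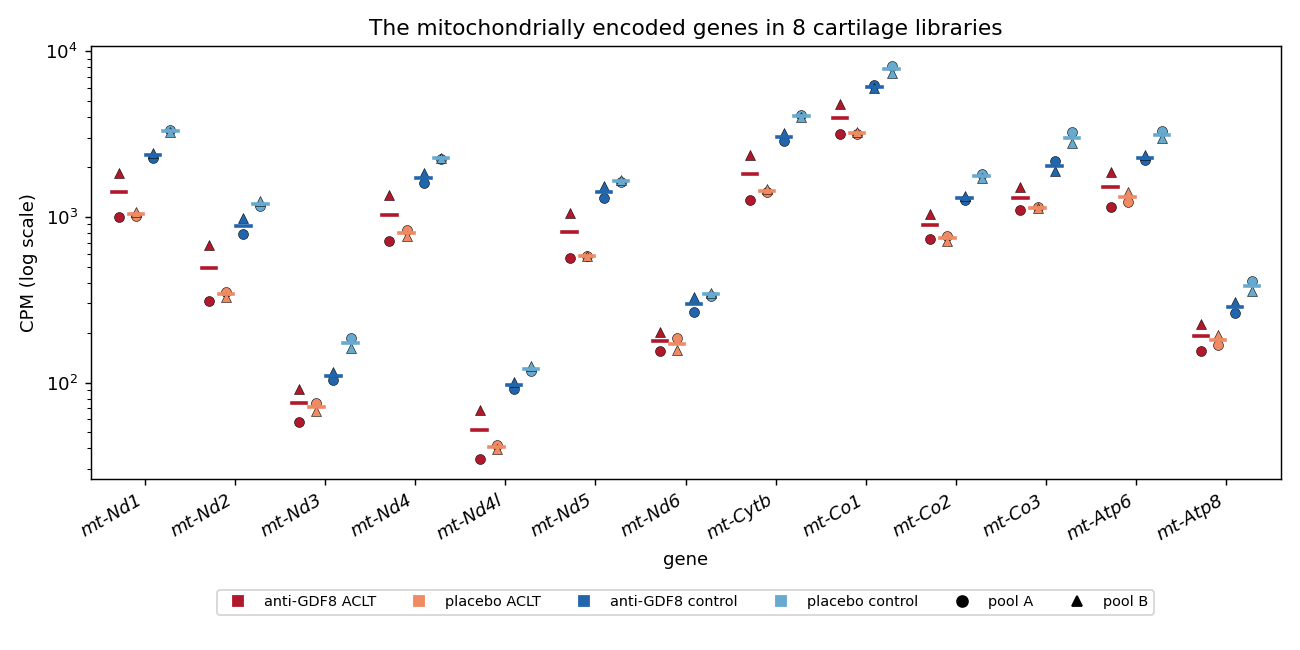
CPM (log axis) of the 13 mt- genes in each of the 8 pools, with the groups side by side at each gene, circles for pool A, triangles for pool B and bars for the group mean. In every mt- gene both placebo ACLT pools lie below both placebo control pools and both anti-GDF8 ACLT pools below both anti-GDF8 control pools, as in mt-Nd2 with 353 and 329.8 CPM in placebo ACLT pools against 1159 and 1245 CPM in placebo control pools.

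Under placebo, the mt- genes and the muscle markers were both lower in ACLT limbs. Of the muscle markers, 25 of 30 were called lower there, against 4.03% of all genes, with a median of -6.19. The order was not shared by all libraries. Anti-GDF8 ACLT pool B had 4.10% of reads in muscle markers and 1.71% in mt- genes. Anti-GDF8 control pool A had 2.09% and 2.14%. With the mean of the muscle markers added to the fit as a covariate, 0 of the 107 genes were called: the mt- genes then stood at -0.99 to -0.24, with a median of -0.45 and limma adjusted p of 0.391 to 0.840, and all 13 stayed below 0. In the same fit 16 of the 34 called genes changed sign, the 3 muscle forms (Cox6a2 0.47, Cox7a1 0.53, Cox8b 0.19) and 13 of the 16 other nuclear genes that had fallen, and the median of the 91 other nuclear genes was 0.36. This covariate was itself far lower in placebo ACLT limbs, and with it 1 gene of all those tested was called. The calls also leaned on few libraries: most ended without placebo ACLT pool A, placebo ACLT pool B or placebo control pool B. Each of these fits left 1 pool in a group, and calls over all genes were fewer in them too.

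The muscle forms were far apart in the anti-GDF8 ACLT pools. Cox6a2 (ENSMUSG00000030785), the muscle form of subunit 6A, had 10.7 and 153 CPM in anti-GDF8 ACLT pools and 7.18 and 5.25 CPM in placebo ACLT pools, against 84.8 and 149 CPM in anti-GDF8 control pools and 147 and 182 CPM in placebo control pools. Cox7a1 (ENSMUSG00000074218), the muscle form of subunit 7A, had 2.21 and 26.0 CPM in anti-GDF8 ACLT pools and 1.45 and 1.17 CPM in placebo ACLT pools, against 10.9 and 23.0 CPM in anti-GDF8 control pools and 24.5 and 36.7 CPM in placebo control pools. Cox8b (ENSMUSG00000025488), the muscle form of subunit 8, had 2.53 and 36.4 CPM in anti-GDF8 ACLT pools and 2.34 and 0.855 CPM in placebo ACLT pools, against 21.7 and 38.4 CPM in anti-GDF8 control pools and 48.8 and 54.7 CPM in placebo control pools. In all 3 genes anti-GDF8 ACLT pool B lay within the range of control limbs and pool A near placebo ACLT limbs, the same split as in the muscle markers of those pools (4.10% of reads in pool B and 0.272% in pool A).

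Placebo ACLT differed from placebo control by -4.73 ± 0.95 for Cox6a2 (limma adjusted p = 0.0133), -4.47 ± 0.92 for Cox7a1 (limma adjusted p = 0.0144) and -5.14 ± 1.01 for Cox8b (limma adjusted p = 0.0121). None of their widely expressed paralogs was called lower. Cox6a1 had 177 and 162 CPM in anti-GDF8 ACLT pools and 176 and 172 CPM in placebo ACLT pools, against 142 and 132 CPM in anti-GDF8 control pools and 131 and 136 CPM in placebo control pools, and its placebo difference of 0.38 ± 0.13 was not called (limma adjusted p = 0.0798). Cox7a2 had 78.3 and 89.5 CPM in anti-GDF8 ACLT pools and 94.2 and 86.2 CPM in placebo ACLT pools, against 65.7 and 69.1 CPM in anti-GDF8 control pools and 85.8 and 67.4 CPM in placebo control pools, a placebo difference of 0.25 ± 0.16 (limma adjusted p = 0.333). Cox8a had 116 and 112 CPM in anti-GDF8 ACLT pools and 135 and 127 CPM in placebo ACLT pools, against 94.7 and 93.5 CPM in anti-GDF8 control pools and 96.7 and 77.6 CPM in placebo control pools, and it rose under placebo by 0.60 ± 0.15 (limma adjusted p = 0.0274). In Cox6a1 and Cox8a every ACLT pool lay above every control pool.

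**Figure D2:**
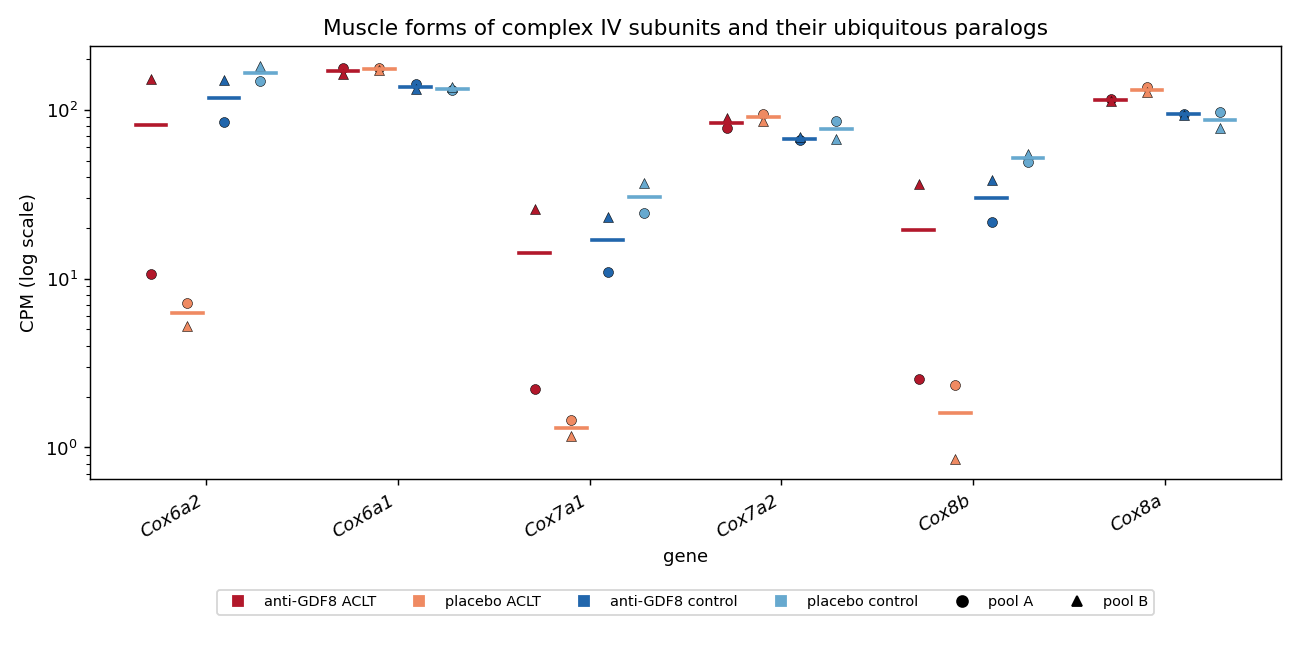
CPM (log axis) of the muscle forms Cox6a2, Cox7a1 and Cox8b and of their paralogs Cox6a1, Cox7a2 and Cox8a in each pool, with the groups side by side at each gene, circles for pool A, triangles for pool B and bars for the group mean. The placebo ACLT pools of Cox6a2 (7.18 and 5.25 CPM) lie far below its placebo control pools (147 and 182 CPM), whereas Cox6a1 stays between 131 and 177 CPM in all 8 pools.

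Within each library, Cox6a2 stood to Cox6a1 as 0.0604 and 0.945 to 1 in anti-GDF8 ACLT pools and as 0.0408 and 0.0306 in placebo ACLT pools, against 0.596 and 1.13 in anti-GDF8 control pools and 1.12 and 1.34 in placebo control pools. The ratio of Cox8b to Cox8a was 0.0218 and 0.324 in anti-GDF8 ACLT pools and 0.0173 and 0.00675 in placebo ACLT pools, against 0.229 and 0.411 in anti-GDF8 control pools and 0.505 and 0.705 in placebo control pools. A ratio within a library does not depend on how the libraries were scaled. Over all 4 ACLT and 4 control libraries, the log2 ratio differed by -3.45 for Cox6a2 to Cox6a1 (exact two-sided permutation p = 0.0571), -3.08 for Cox7a1 to Cox7a2 (exact permutation p = 0.0857) and -3.83 for Cox8b to Cox8a (exact permutation p = 0.0571). The smallest p that 4 against 4 libraries allow is 0.0286, and adjusted over the 8 ratio tests these 3 were 0.152, 0.171 and 0.152.

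The summed CPM of the 13 mt- genes was 1.18 and 1.33 times that of all 94 nuclear genes in anti-GDF8 ACLT pools and 1.21 and 1.26 times in placebo ACLT pools, against 2.14 and 1.88 times in anti-GDF8 control pools and 2.51 and 2.05 times in placebo control pools. All 4 ACLT libraries lay below all 4 control libraries, a log2 difference of -0.78 (exact two-sided permutation p = 0.0286, the smallest possible, and 0.152 adjusted over the 8 ratio tests). Anti-GDF8 ACLT pool B, with muscle markers at 4.10% of reads, stood with the other ACLT pools in this ratio, at 1.33, and with the control pools in the ratios of muscle forms. Leaving out any 1 library gave differences of -0.84 to -0.70. Between the 4 anti-GDF8 and 4 placebo libraries, the log2 ratios differed by 1.09, 0.95 and 1.00 for the muscle forms over their paralogs and by -0.075 for mt- over nuclear genes, with exact permutation p of 0.600, 0.571, 0.714 and 0.771.

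**Figure D3:**
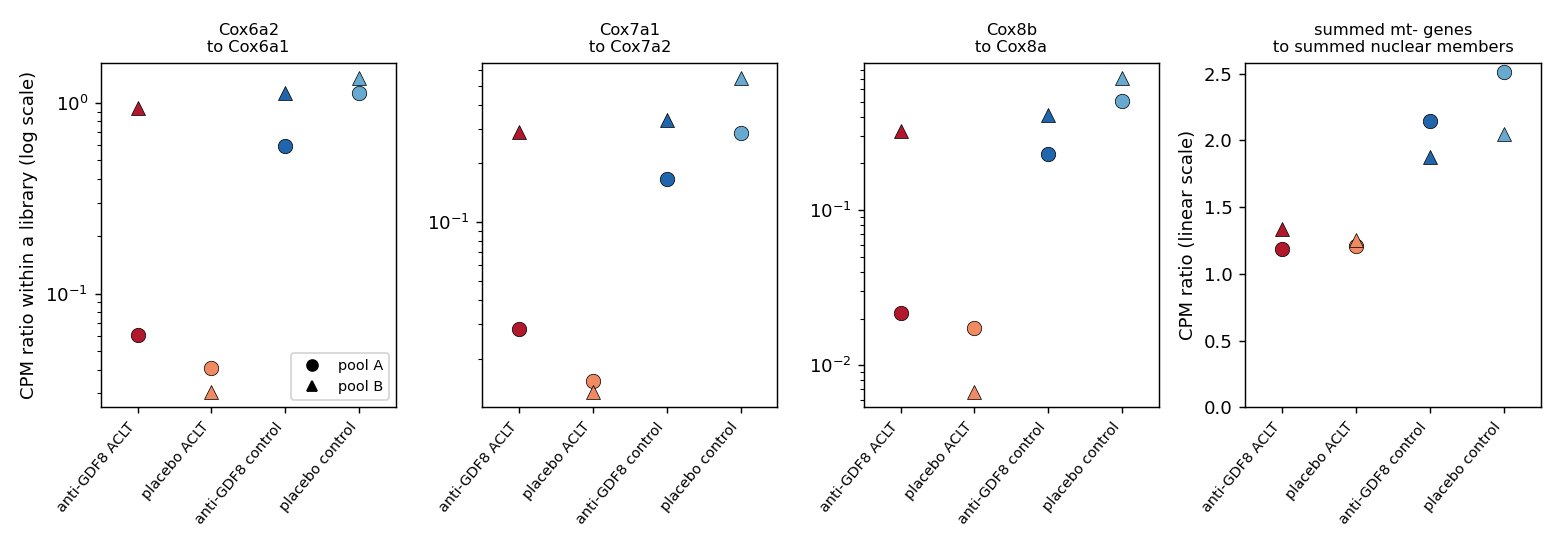
Ratios of CPM within each library by group (circles for pool A, triangles for pool B), for each muscle form over its paralog (log axes) and for the sum of the 13 mt- genes over the sum of the nuclear genes (linear axis). The mt- to nuclear ratio separates ACLT pools (1.18 to 1.33) from control pools (1.88 to 2.51), while anti-GDF8 ACLT pool B sits among control pools for Cox6a2 to Cox6a1, at 0.945.

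The stretches upstream of Cox8b and Cox7a1 are shown because these genes fell together, and that of Cox6a1 as a paralog that did not fall. Each is the 250 bases before the annotated start, from RefSeq promoters on GRCm38.p6: Cox8b at chr7:140900447-140900696 (minus strand), Cox7a1 at chr7:30183921-30184170 (plus strand) and Cox6a1 at chr5:115348959-115349208 (minus strand). Capitals mark CAGCTG (an E-box string), CCGGAAG or its reverse complement (an ETS string) and the NRF1 motif, all searched on both strands, with no overlap among the marked ones.
Cox8b: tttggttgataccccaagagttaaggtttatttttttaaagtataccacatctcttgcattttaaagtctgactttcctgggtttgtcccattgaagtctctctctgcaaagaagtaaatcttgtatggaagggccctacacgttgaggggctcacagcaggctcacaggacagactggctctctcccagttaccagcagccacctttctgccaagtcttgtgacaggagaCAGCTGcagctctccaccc
Cox7a1: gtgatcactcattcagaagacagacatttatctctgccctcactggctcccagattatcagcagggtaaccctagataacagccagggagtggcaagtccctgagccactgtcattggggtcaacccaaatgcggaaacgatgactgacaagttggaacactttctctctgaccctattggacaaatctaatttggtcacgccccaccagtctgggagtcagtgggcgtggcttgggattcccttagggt
Cox6a1: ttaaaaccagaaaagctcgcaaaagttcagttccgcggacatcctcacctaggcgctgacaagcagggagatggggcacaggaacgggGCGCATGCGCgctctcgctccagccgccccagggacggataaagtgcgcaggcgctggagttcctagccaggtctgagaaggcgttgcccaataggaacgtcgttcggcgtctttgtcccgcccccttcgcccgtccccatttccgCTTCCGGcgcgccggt

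In Cox8b the E-box letters began 19 bases before the start, and in Cox6a1 the NRF1 letters began 162 and the ETS letters 16 bases before it. Cox7a1 had none of the marked strings. Neither did the stretches of the same length upstream of Cox8a and Cox7a2, the paralogs of the muscle forms shown, so Cox6a1 does not stand for the paralogs. Of the 94 nuclear genes, 76 had a promoter entry, and 18, Cox6a2 among them, did not. A gene was counted when any of its promoter entries matched, whereas shares of all promoters are over single entries, so the units differ. The ETS letters stood in 14 of the 76 (18.4%), against 6.91% of all 32851 promoters of the same length, and the NRF1 letters in 5 (6.58%), against 0.782%. The E-box letters stood in 6 (7.89%), against 13% of all promoters, and the CCAAT letters, on both strands and not marked above, in 33 (43.4%), against 33.8%. The MEF2 motif was found in 0 of the 76 and in 1.69% of all promoters. A match is a string of letters and not a site, and no match says nothing of a factor.

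Among the other nuclear genes, core subunits made up 8 of the 16 that fell. Core here means the 7 conserved nuclear subunits of complex I together with Sdha, Sdhb, Cyc1, Uqcrfs1, Atp5a1 and Atp5b. The list was made after the values were seen, so that its counts are a description. The list holds 13 genes, with a median of -0.86 under placebo, and in all 13 both placebo ACLT pools lay below both placebo control pools. It leaves out the complex II subunits Sdhc and Sdhd. Sdhc was also lower, with 73.0 and 72.0 CPM in placebo ACLT pools against 78.6 and 118 CPM in placebo control pools. Sdhd was higher, with 246 and 238 CPM against 217 and 189 CPM. Of the other 78 nuclear genes, 8 fell and 2 rose, with a median of -0.21. Within complex I, 7 of 7 mt- genes fell (median -1.51), 3 of 7 nuclear core subunits (median -0.81) and 3 of 32 accessory subunits (median -0.23). Taking the longest protein-coding transcript of each gene, the 16 nuclear genes that fell had a median length of 1628.5 bases, against 861 bases for the 73 not called. The part of length in these calls was not tested.

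In complex I, the called nuclear subunits were Ndufs1 (-0.99), Ndufs7 (-1.03) and Ndufv1 (-0.79), which carry iron-sulfur clusters, with the accessory subunits Ndufa9 (-0.74), Ndufa10 (-0.92) and Ndufb9 (-0.71), at limma adjusted p of 0.0238 to 0.0446. Ndufs1, the largest subunit of the peripheral arm, had 113 and 175 CPM in anti-GDF8 ACLT pools and 88.5 and 112 CPM in placebo ACLT pools, against 165 and 216 CPM in anti-GDF8 control pools and 181 and 217 CPM in placebo control pools. Of the 8 assembly factors, Ndufaf6 fell by 0.98 on the log2 scale and Ndufaf2 rose by 0.91 ± 0.26, at a limma adjusted p of 0.04995, just under the threshold. Ndufaf2 had 7.16 and 6.13 CPM in anti-GDF8 ACLT pools and 12.6 and 9.64 CPM in placebo ACLT pools, against 4.62 and 5.45 CPM in anti-GDF8 control pools and 6.46 and 5.30 CPM in placebo control pools, and leaving out any 1 of the 8 libraries ended its call.

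Complex II, which has no mitochondrial gene, was split by subunit. Sdha, the flavoprotein that oxidizes succinate, had 295 and 485 CPM in anti-GDF8 ACLT pools and 239 and 272 CPM in placebo ACLT pools, against 406 and 488 CPM in anti-GDF8 control pools and 434 and 552 CPM in placebo control pools, and it fell under placebo by 0.94 on the log2 scale (SE 0.24, limma adjusted p = 0.0335). Sdhb, the iron-sulfur subunit, had 120.5 and 219 CPM in anti-GDF8 ACLT pools and 123 and 127 CPM in placebo ACLT pools, against 146 and 185 CPM in anti-GDF8 control pools and 199 and 199 CPM in placebo control pools, and its difference of -0.67 ± 0.25 was not called (limma adjusted p = 0.110). The membrane anchors stood closer to 0, at -0.41 ± 0.23 for Sdhc and 0.26 ± 0.19 for Sdhd (limma adjusted p = 0.268 and 0.396). Sdhd had 202 and 286 CPM in anti-GDF8 ACLT pools and 246 and 238 CPM in placebo ACLT pools, against 195 and 238 CPM in anti-GDF8 control pools and 217 and 189 CPM in placebo control pools.

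In complex III, 3 of 9 nuclear genes fell: Cyc1 (cytochrome c1), Uqcrfs1 (the Rieske iron-sulfur protein) and Uqcrc1 (a core protein by name, but not on the core list above). Cyc1 had 174 and 255 CPM in anti-GDF8 ACLT pools and 153 and 155 CPM in placebo ACLT pools, against 209 and 247 CPM in anti-GDF8 control pools and 221 and 319 CPM in placebo control pools, a difference of -0.78 ± 0.23 (limma adjusted p = 0.0494). Uqcrc1 had 361 and 549 CPM in anti-GDF8 ACLT pools and 288 and 308 CPM in placebo ACLT pools, against 479 and 578 CPM in anti-GDF8 control pools and 463 and 837 CPM in placebo control pools, a difference of -1.06 ± 0.29 (limma adjusted p = 0.0416). Uqcrfs1 differed by -1.09 ± 0.27 (limma adjusted p = 0.0298).

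The nuclear genes of complex IV were mixed in sign. Of 14 outside the muscle forms, the near-copy Cox5b-ps among them, 8 had values above 0 and 6 below, with a median of 0.15. Of these, Cox5a fell (-0.97, limma adjusted p = 0.0335) and Cox8a rose. Cox4i1, the most abundant nuclear subunit of the complex, had 258 and 349 CPM in anti-GDF8 ACLT pools and 281 and 269 CPM in placebo ACLT pools, against 278 and 319.7 CPM in anti-GDF8 control pools and 274 and 359.6 CPM in placebo control pools, groups that overlap (-0.19 ± 0.20, limma adjusted p = 0.550). Cox4i2, its paralog best known from lung and low oxygen, had 1.92 and 0.703 CPM in anti-GDF8 ACLT pools and 2.69 and 2.84 CPM in placebo ACLT pools, against 1.95 and 1.16 CPM in anti-GDF8 control pools and 1.74 and 2.35 CPM in placebo control pools. Ndufa4l2, a gene induced by low oxygen whose paralog Ndufa4 is now counted with complex IV, had 19.5 and 7.38 CPM in anti-GDF8 ACLT pools and 28.2 and 14.6 CPM in placebo ACLT pools, against 7.42 and 6.46 CPM in anti-GDF8 control pools and 11.1 and 7.90 CPM in placebo control pools. The placebo differences of 0.44 ± 0.53 for Cox4i2 and 1.11 ± 0.46 for Ndufa4l2 were not called (limma adjusted p = 0.612 and 0.140).

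In ATP synthase, 4 of 17 nuclear genes fell: Atp5a1 (alpha, -0.86), Atp5b (beta, -0.90 ± 0.24), Atp5pb (subunit b, -0.60) and Atp5g1 (-1.11 ± 0.27), at limma adjusted p of 0.0277 to 0.0499. Atp5b had 972 and 1410.2 CPM in anti-GDF8 ACLT pools and 748 and 820.4 CPM in placebo ACLT pools, against 1161 and 1382 CPM in anti-GDF8 control pools and 1250.1 and 1720.2 CPM in placebo control pools. The 3 genes for subunit c, which forms the rotor ring and has the same mature sequence from each gene, were compared after their values were seen. Atp5g1 had 93.6 and 178 CPM in anti-GDF8 ACLT pools and 92.0 and 94.1 CPM in placebo ACLT pools, against 129 and 167 CPM in anti-GDF8 control pools and 188 and 215 CPM in placebo control pools. Neither Atp5g3 (-0.57 ± 0.18, limma adjusted p = 0.0676) nor Atp5g2 (-0.05 ± 0.28, limma adjusted p = 0.929) was called.

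Over the 107 genes, both placebo ACLT pools lay below both placebo control pools in 72, against 19.4% of all genes tested, and above them in 15, against 38.8%. Other scalings moved the whole table: under trimmed mean scaling the median of all genes was -0.01 in place of 0.17, and 30 of the 91 other nuclear genes were called lower and 1 higher, and 7.63% of all genes were called lower of 16.7% called in all, against 4.03% of 15.6% with CPM as deposited. Cox8a stayed above 0 and called under each of 3 other scalings, and Ndufaf2 stayed above 0 but was not called. With limma's spread taken without a trend on expression level, the 13 mt- genes were called and none of the 94 nuclear ones. In that fit 9.63% of all genes were called, 1.51% of them all lower.

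**Figure D4:**
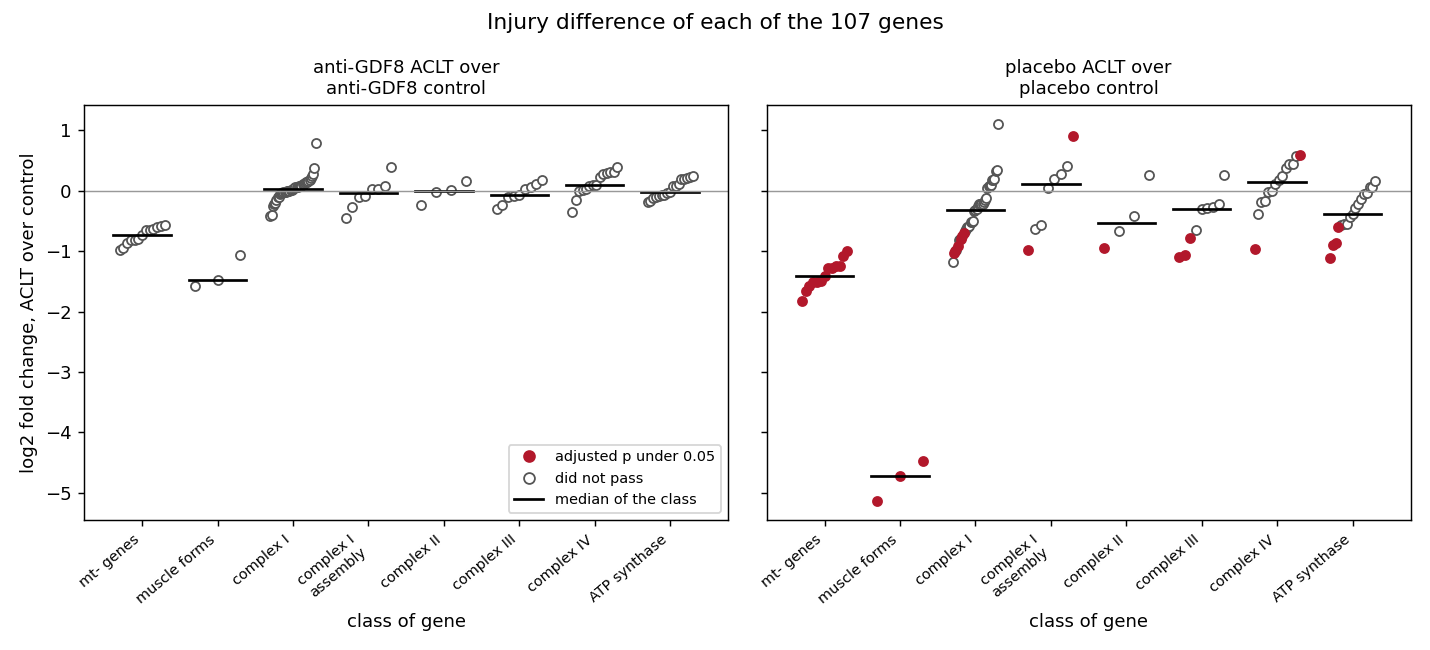
Log2 fold changes of ACLT over control limbs for each of the 107 genes, with the other nuclear genes split by complex, under anti-GDF8 (left) and placebo (right). Filled points were called, open points were not, and bars are medians. Under placebo the medians are -1.40 for mt- genes, -4.73 for muscle forms and -0.27 for other nuclear genes, and under anti-GDF8 they are -0.74, -1.47 and 0.03.

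In anti-GDF8 mice, ACLT limbs were compared with control limbs in the same way, and 0 of the 107 genes were called, against 0.0115% of all genes lower and 0.598% higher. The mt- genes nonetheless stood lower in ACLT limbs: both anti-GDF8 ACLT pools lay below both anti-GDF8 control pools in 13 of 13, against 23.8% of all genes, and 13 of 13 had an unadjusted limma p under 0.05, against 3.52% of all genes lower. Of the other 94 genes only Cox6a1 had one, at 0.31 ± 0.13 (6.59% of all genes higher). The differences of the mt- genes were -0.98 to -0.57, with a median of -0.74 beside -0.04 for all genes. Among them mt-Nd6 had the lowest limma adjusted p, 0.151. The mt- genes are cut from shared precursor RNAs and were measured in the same pools, so the counts of 13 are not of independent genes. The muscle forms had a median of -1.47 with overlapping pools in 3 of 3. The other nuclear genes had a median of 0.03, with pools apart downward in 2 genes and upward in 6, against 20.2% of all genes upward. Leaving out anti-GDF8 ACLT pool B, the pool with the higher muscle markers, gave 10 calls, of 7 mt- genes and the 3 muscle forms, all lower, against 2.11% of all genes called in that fit. In each of these fits the group held 1 library, which is assumed to vary like the libraries of the other groups. The same holds for the fits without pool A or pool B below.

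**Figure D5:**
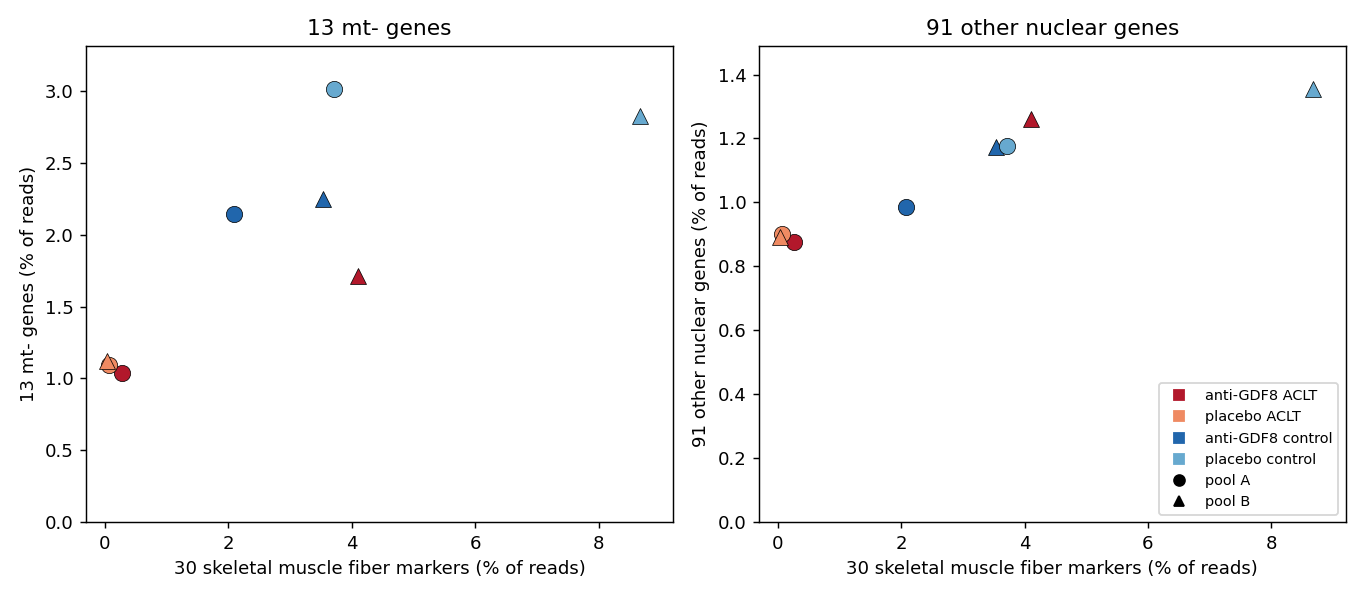
Summed share of reads of the mt- genes (left) and of the 91 other nuclear genes (right) in each of the 8 libraries against the share taken by 30 skeletal muscle fiber markers, with points colored by group, circles for pool A and triangles for pool B. Anti-GDF8 ACLT pool B has 4.10% of reads in muscle markers and 1.71% in mt- genes, while the control pools with 2.09% to 8.67% in muscle markers have 2.14% to 3.01% in mt- genes.

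Across libraries, the 91 other nuclear genes summed to 0.876% and 1.26% of reads in anti-GDF8 ACLT pools and 0.903% and 0.893% in placebo ACLT pools, against 0.987% and 1.17% in anti-GDF8 control pools and 1.18% and 1.35% in placebo control pools. In that sum anti-GDF8 ACLT pool B lay among the control pools, as in the muscle markers, whereas in the mt- sum it lay below all of them.

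Across both treatments, 13 mt- genes had their ACLT pools below their control pools in each arm, against 6.72% of all genes. Of the 91 other nuclear genes, 2 did so, and 54 had ACLT pools below under placebo with overlapping pools under anti-GDF8, an order that 12.2% of all genes had. The difference between the arms was tested as the drug by injury interaction, and 0 of the 107 genes and 0% of all genes were called. At an unadjusted limma p under 0.05, 13 genes were higher in that test, against 2.67% of all genes. The interaction had a median of 0.67 for mt- genes, 3.42 for muscle forms and 0.35 for other nuclear genes, and 88 of 107 values lay above 0, against 32.5% of all genes. Its smallest limma adjusted p was 0.468, for Cox7a1. The size of these medians leaned on anti-GDF8 ACLT pool B. Leaving out that pool gave interaction medians of 0.27 for mt- genes, 1.65 for muscle forms and 0.12 for other nuclear genes. All mt- genes and muscle forms stayed above 0, but 39 of the 91 other nuclear genes then lay below 0. Leaving out pool A instead gave medians of 1.02, 5.18 and 0.63. Without anti-GDF8 ACLT pool A, 5 genes were called higher, the 3 muscle forms, 1 mt- gene and 1 other nuclear gene, against 1.75% of all genes called.

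Between ACLT limbs, anti-GDF8 was compared with placebo. None of the 107 genes was called, nor was any gene of the table (0%), and at an unadjusted limma p under 0.05 3 of the 107 were lower and 7 higher, against 11.7% and 5.6% of all genes. The 3 muscle forms had both anti-GDF8 pools above both placebo pools, as 16.3% of all genes did, with differences of 2.71 ± 0.95 for Cox6a2, 2.51 ± 0.92 for Cox7a1 and 2.72 ± 1.01 for Cox8b (limma adjusted p = 0.209, 0.223 and 0.226). These values rest largely on anti-GDF8 ACLT pool B: without it the median of the 3 was 0.80, and without pool A it was 4.62, with 4 of the 107 genes called, a share near the 2.66% of all genes called in that fit. The mt- genes had a median of 0.25, from 0.03 to 0.43, and their pools overlapped in 13 of 13. Without anti-GDF8 ACLT pool B their median was -0.13, with all 13 below 0, and without pool A it was 0.57. The other nuclear genes had a median of 0.06, which was -0.17 without pool B and 0.32 without pool A.

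Between control limbs, anti-GDF8 was again compared with placebo, and none of the 107 genes and 0% of all genes were called. The values leaned downward, with 100 of 107 below 0, against 36.9% of all genes, and both anti-GDF8 pools below both placebo pools in 13 of 13 mt- genes, against 11% of all genes. The mt- genes had a median of -0.42, and no adjusted p of the 107 was below 0.891. By unadjusted limma p under 0.05, 3 genes were lower and 1 was higher, against 1.58% and 2.97% of all genes. The higher one was Cox6b2, a form of subunit 6B best known from testis, with 21.1 and 19.5 CPM in anti-GDF8 control pools and 12.5 and 13.9 CPM in placebo control pools (0.62 ± 0.17, limma adjusted p = 0.891). It stood at 21.2 and 19.4 CPM in anti-GDF8 ACLT pools and 15.2 and 14.8 CPM in placebo ACLT pools, so that every anti-GDF8 pool lay above every placebo pool. The comparisons share libraries, since each group enters several of them.

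Genes around the chain were followed as lists. Of 17 genes for electron carriers and coenzyme Q synthesis, 5 fell under placebo and 1 rose, against 4.03% and 11.6% of all genes. No gene of any list in this paragraph was called in another comparison. Cycs, the mobile electron carrier cytochrome c, had 89.2 and 159 CPM in anti-GDF8 ACLT pools and 107 and 91.3 CPM in placebo ACLT pools, against 118 and 147 CPM in anti-GDF8 control pools and 198 and 186 CPM in placebo control pools (-0.96 ± 0.25, limma adjusted p = 0.0361). Coq10a and Coq9, which bind coenzyme Q or its precursors, fell (-2.30 and -1.64), and Coq10b, a paralog of Coq10a, rose (0.78), at limma adjusted p of 0.0128, 0.0353 and 0.0371. Of 32 assembly factors of complexes II to V, 0 fell and 3 rose: Pet100 (0.80), Cox20 (0.72) and Sco2 (1.30), all of them factors of cytochrome oxidase, at limma adjusted p of 0.0192, 0.0403 and 0.0462. These 3 of 32 are a share below the 11.6% of all genes called higher under placebo. None of 8 complex I assembly factors named outside the rule was called.

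Of 16 genes for mitochondrial transcription and upkeep of its DNA, 0 fell and 1 rose, also a share below those 11.6% of all genes. That gene was Mterf4, a factor that binds mitochondrial ribosomal RNA, with 32.5 and 30.3 CPM in anti-GDF8 ACLT pools and 43.6 and 36.3 CPM in placebo ACLT pools, against 17.95 and 23.7 CPM in anti-GDF8 control pools and 20.8 and 12.6 CPM in placebo control pools (1.30 ± 0.26, limma adjusted p = 0.0123). Tfam, which packages mitochondrial DNA and starts its transcription, stood at 0.19 ± 0.20 under placebo (limma adjusted p = 0.539). Of 13 transcriptional regulators of respiratory genes, 4 fell, against 4.03% of all genes: Ppargc1a, Perm1, Ppara and Esrrg. Ppargc1a, a coactivator of mitochondrial genes, had 1.74 and 6.98 CPM in anti-GDF8 ACLT pools and 1.79 and 0.389 CPM in placebo ACLT pools, against 4.805 and 9.69 CPM in anti-GDF8 control pools and 7.21 and 6.09 CPM in placebo control pools (-2.89 ± 0.78, limma adjusted p = 0.0394). Perm1, a muscle regulator of the same program, fell by 3.71 on the log2 scale (limma adjusted p = 0.0470). Ppara, a nuclear receptor for fatty acids, was close to the detection floor, with 0.362 and 1.41 CPM in anti-GDF8 ACLT pools and a value listed at 0 and 0.0778 CPM in placebo ACLT pools, against 0.547 and 2.07 CPM in anti-GDF8 control pools and 0.994 and 0.641 CPM in placebo control pools.

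Of 10 genes for exchange of ATP and ADP, uncoupling and energy transfer, 4 fell under placebo and 0 rose, against 4.03% and 11.6% of all genes. Ckmt2, the mitochondrial creatine kinase of striated muscle, had 8.72 and 207 CPM in anti-GDF8 ACLT pools and 2.64 and 4.94 CPM in placebo ACLT pools, against 125 and 229.5 CPM in anti-GDF8 control pools and 231 and 369 CPM in placebo control pools (-6.32 ± 1.15, limma adjusted p = 0.00907). Slc25a4, the ADP/ATP carrier of heart and muscle, had 139 and 742 CPM in anti-GDF8 ACLT pools and 184 and 159.8 CPM in placebo ACLT pools, against 453 and 704 CPM in anti-GDF8 control pools and 903 and 1218 CPM in placebo control pools (-2.61 ± 0.62, limma adjusted p = 0.0246). In both genes, as in the muscle markers, anti-GDF8 ACLT pool B lay among the control pools and the other 3 ACLT pools lay far below. Ucp3, an inner membrane carrier of muscle, and Vdac1, the outer membrane channel, also fell (-6.05 and -1.62, limma adjusted p = 0.00121 and 0.0246).

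Markers of other cells moved with the injury as well. Under placebo, 8 of 12 fibroblast markers and 10 of 12 macrophage markers rose and 0 fell, against 11.6% of all genes higher and 4.03% lower. Fibroblast markers took 1.33% and 1.05% of reads in anti-GDF8 ACLT pools and 4.44% and 2.47% in placebo ACLT pools, against 0.337% and 0.798% in anti-GDF8 control pools and 0.661% and 1.35% in placebo control pools. The part of these cells in the rise of Cox8a, Ndufaf2, Pet100, Cox20, Sco2 and Mterf4 was not tested.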

How the data were processed

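RNA from pooled mouse knee cartilage was sequenced in 8 libraries, 2 pools in each of 4 groups taken from the sample labels. The deposited table holds CPM made by the authors, whose columns all have the same sum. The submitters' processing notes name STAR 2.7.3a, Partek, DESeq2, mm10 and mm39 but not the step each served, and the build of the table's coordinates is not given in the sources used here, so none was printed from it. The depth of each library was estimated as that at which most low CPM values are whole reads. Only 69.7% to 75.6% of values under 200 reads came out whole within 0.02 of a read, so no count test was run and depths are estimates, which limit the precision of low genes.

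CPM were turned into reads at the median depth, genes averaging 10 reads or more were kept (17401), 1 read was added as a pseudocount, and limma 3.58.1 (R 4.3.3, trend, residual df 4) fitted 1 model of 4 group means, with Benjamini-Hochberg adjustment over all genes tested. The fit was also run on simulated counts with the same dispersion for every gene. These held no difference in muscle share between the pools of a group, so that run does not vouch for the calls here. Ratios within libraries were compared by exact permutation tests (scipy 1.17.1). Near-identical copies were found with blastn 2.17.0+ in GENCODE M21 transcripts.

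The genes and lists were chosen with earlier results of these data known. The genes named are the muscle forms and their paralogs, the 13 mt- genes, Sdha to Sdhd and Cyc1, the 6 called genes of smallest adjusted p in each direction, the most abundant nuclear gene of each complex, tissue-restricted paralogs, and up to 4 genes of each other list. 1 result under this rule is not reported here. Other genes, the core subunit list and the subunit c genes were named after their values were seen. The lists of markers were skeletal muscle fiber, cartilage, erythroid, neutrophil, macrophage, fibroblast, adipocyte and brown adipocyte. Of 15 cartilage markers tested 0 fell and 1 rose under placebo, of 12 erythroid and 13 neutrophil markers 0 changed, of 8 adipocyte markers 1 fell and 1 rose, and of 3 brown adipocyte markers 1 fell. Alternatives were other pseudocounts, filters, scalings and variance models, a replicate block, a muscle covariate, leaving out each library and, added after the data were seen, adding the nuclear copies.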

Additional observations from a re-analysis of the deposited data

How the results depend on the processing

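Under placebo injury 34 of the 107 genes were called. The calls kept out of 34 were 32 and 33 with a pseudocount of 0.5 and 5 reads, 31 without a filter, 34 with a mean of at least 50 reads, 30 with a robust fit, 30 with only the 4 libraries compared, and 33, 32 and 33 under trimmed mean, quantile and reduced-total scaling. Under trimmed mean scaling 7.63% of all genes were called lower of 16.7% called in all, against 4.03% of 15.6% as reported. Without a trend in the variance 13 genes were called, against 9.63% of all genes. With the muscle marker covariate 0 were, and 16 of the 34 turned to the other direction: Cox5a (0.22), Ndufa9 (0.054), Atp5g1 (0.23), Ndufs7 (0.21), Sdha (0.15), Ndufb9 (0.13), Cyc1 (0.21), Atp5b (0.023), Atp5a1 (0.088), Cox8b (0.19), Uqcrc1 (0.15), Ndufa10 (0.070), Cox6a2 (0.47), Ndufv1 (0.20), Uqcrfs1 (0.26) and Cox7a1 (0.53). The cause was not tested. Leaving out 1 library gave 3 to 46 calls under placebo injury, 0 to 10 for anti-GDF8 injury, 0 to 4 for anti-GDF8 against placebo in ACLT limbs, 0 to 0 in control limbs and 0 to 5 for the interaction. For ACLT against control libraries, leaving out 1 gave log2 ratio differences of -4.57 to -2.92 for Cox6a2 to Cox6a1, -4.08 to -2.61 for Cox7a1 to Cox7a2, -4.97 to -3.11 for Cox8b to Cox8a and -0.84 to -0.70 for mt- to nuclear genes, the last with an exact permutation p of 0.0571 each time, the smallest that 3 against 4 libraries allow. For anti-GDF8 against placebo libraries they were 0.17 to 2.05, 0.13 to 1.91, -0.19 to 2.05 and -0.23 to 0.12, with a change of sign without placebo ACLT pool B for Cox8b to Cox8a (-0.19) and, for mt- to nuclear genes, without anti-GDF8 ACLT pool A (0.07) or B (0.01) and without placebo control pool A (0.12) or B (0.02). None of these drug differences passed the test.

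Deviations of same-letter pools correlated at 0.0032 to 0.296 between groups, over 0.1 in 3 of 6 pairs of groups. No source used here says that a letter marks the same mice, and whether the letters pair the pools cannot be told from these values. With the letter as a replicate block 42 genes were called, 33 of the 34 among them, and 24 in place of 16 of the other nuclear genes were lower. With the title number as the block 31 were called, 30 of the 34 among them, with 13 other nuclear genes lower.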
